A study of Mus musculus with 2 samples.

Results

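Immediate-early and early response genes were measured as a set of 41 genes, of the 32285 genes in the count matrices, in 2 single-cell RNA-sequencing libraries made from sorted mouse plantaris cells. The 41 genes were listed by name as known members of the class. They were followed through 8 cell groups to see which levels went with a state of the muscle stem cells (MuSCs) and which were shared by the other cell types in the same suspension.

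Both libraries came from 26-week-old Pax7rtTA; TRE-H2B-GFP mice, in which the Pax7 promoter drives a doxycycline-dependent activator and doxycycline therefore labels the nuclei of Pax7-expressing cells and of fibres that take them up. All mice, sham and overloaded, drank doxycycline at 2.0 mg/ml for 2 weeks, in 2% sucrose per the labels, while the methods give a different sucrose level. The sham library followed a mock operation, and the MOV library followed 5 days of mechanical overload of the plantaris after part of its synergist muscles had been cut away. The labels describe a single mouse while the methods describe pools of mice, so each condition has 1 library and no replicate, and every interval below is a 95% interval for counting error only.

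Immediate-early genes are switched on within minutes of a stimulus, without new protein synthesis, when MAP kinase, calcium and cyclic AMP signals reach the ready-made factors SRF and CREB at their promoters. Their products include the AP-1 proteins (Fos and Jun families), the EGR, NR4A and KLF transcription factors, and the brakes that end the response: phosphatases of MAP kinases (Dusp), RNA-decay proteins (Zfp36, Btg) and inhibitors of NF-kB (Nfkbia, Tnfaip3). In muscle, the enzymatic digestion that frees cells from the tissue is itself known to switch these genes on in MuSCs, so levels in a sorted suspension hold the state of the cell in the muscle and its response to isolation together, and the present design cannot tell them apart.

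Promoter sequence was available for 33 of the 41 members in RefSeq windows of 250 bases before and 50 bases from the transcription start (GRCm38.p6). The windows were searched on both strands for the CArG box, which SRF binds, for TGACGTCA, the full CREB element, and for TGACGT, a shorter form that every full element also holds. A CArG box lay in 3 members (Dusp5, Egr2 and Zfp36), or 9.09%, against 1.81% of 27025 genes. A full CREB element lay in 4 members (Btg2, Dusp1, Maff and Ppp1r15a), or 12.1%, against 2.03% of genes. The shorter form lay in 12 members, or 36.4%, against 8.37% of genes. Sites farther than 250 bases before the start were not searched, so a member not listed may hold one there. Egr1 was among the members without a window. The 250 bases before the start are shown 5′ to 3′, with the motifs in capitals, for 6 members chosen among those that hold a motif. Egr2 had 5 windows and Maff 3, from different starts, and the window with the most motifs is shown for each. Fosl1, Klf2, Myc and Klf4 were not among the members with a motif and are not shown. Fos and Egr2 had their highest level in tenocytes in both libraries, for Egr2 in sham within counting error of Pdgfra cells. Zfp36 was lower in MuSCs than in stromal cells. Maff, Ppp1r15a and Btg1 had their highest level in MOV in MuSCs.
Fos, chr12:85473640-85473889 (+ strand): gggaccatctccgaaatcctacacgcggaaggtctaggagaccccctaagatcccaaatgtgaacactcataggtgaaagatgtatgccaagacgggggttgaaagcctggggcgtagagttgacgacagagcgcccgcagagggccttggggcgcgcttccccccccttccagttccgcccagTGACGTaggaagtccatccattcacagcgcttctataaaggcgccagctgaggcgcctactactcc
Zfp36, chr7:28379229-28379478 (- strand): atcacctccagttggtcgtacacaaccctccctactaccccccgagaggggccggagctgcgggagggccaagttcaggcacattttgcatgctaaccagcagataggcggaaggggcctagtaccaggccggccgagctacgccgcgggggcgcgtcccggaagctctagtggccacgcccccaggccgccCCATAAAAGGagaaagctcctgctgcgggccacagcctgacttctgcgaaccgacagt
Egr2, chr10:67537619-67537868 (+ strand): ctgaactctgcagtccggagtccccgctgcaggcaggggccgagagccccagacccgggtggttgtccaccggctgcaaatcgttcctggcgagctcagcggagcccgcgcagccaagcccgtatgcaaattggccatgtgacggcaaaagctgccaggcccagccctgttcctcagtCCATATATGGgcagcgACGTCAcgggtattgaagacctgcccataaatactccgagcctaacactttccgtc
Maff, chr15:79347270-79347519 (+ strand): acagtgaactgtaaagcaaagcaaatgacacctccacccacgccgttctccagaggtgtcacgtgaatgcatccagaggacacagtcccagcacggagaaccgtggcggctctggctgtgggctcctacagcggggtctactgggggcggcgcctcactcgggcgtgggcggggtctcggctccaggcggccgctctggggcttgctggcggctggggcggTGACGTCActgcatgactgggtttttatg
Ppp1r15a, chr7:45526269-45526518 (- strand): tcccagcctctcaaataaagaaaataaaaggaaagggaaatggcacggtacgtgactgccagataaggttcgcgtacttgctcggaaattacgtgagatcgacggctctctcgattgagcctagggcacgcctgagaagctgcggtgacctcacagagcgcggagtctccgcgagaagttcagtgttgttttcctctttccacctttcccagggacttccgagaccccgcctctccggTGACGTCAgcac
Btg1, chr10:96616751-96617000 (+ strand): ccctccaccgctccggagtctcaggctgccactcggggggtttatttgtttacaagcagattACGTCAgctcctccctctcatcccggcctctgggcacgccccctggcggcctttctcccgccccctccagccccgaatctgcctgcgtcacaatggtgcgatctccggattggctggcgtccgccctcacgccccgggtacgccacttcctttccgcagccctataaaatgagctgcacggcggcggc
These letters are descriptions of the windows and not measured sites. In Egr2 the CArG box began 72 bases before the start and the shorter CREB form, read on the other strand, began 56 bases before it. In Zfp36 the CArG box began 58 bases before the start. The full CREB element began 29 bases before the start in Maff and 12 bases before it in Ppp1r15a, whereas the shorter form stood 66 bases before the start in Fos and, on the other strand, 188 bases before it in Btg1.

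Cells were assigned to groups by the UMIs (unique molecular identifiers, each standing for 1 captured transcript) of marker genes, none of which is a member. Quiescent-marker MuSCs carried markers such as Pax7 and Chrdl2 (66 cells in sham, 195 in MOV), matrix MuSCs Spp1, Gpc3 and Islr (0 and 196), cycling MuSCs Top2a and Mki67 (5 and 374), and Myog cells, committed to differentiation, Myog and Mymk (0 and 112). Fibre droplets held RNA of mature muscle fibres (502 and 48). Pdgfra cells, the fibro-adipogenic progenitors of muscle, numbered 30 and 390, tenocytes 20 and 171, and vascular cells, endothelial and mural together, 11 and 68. The sort is given as VCAM+ CD31- CD45- Sca1- in the methods and as GFP signal in the series text, either of which is meant to hold back most of the last 3 groups. The median share of MuSC markers was at most 5.24 per 10000 UMIs in those groups and 34.8 or more in quiescent-marker MuSCs. Cells of those groups that also passed the limit for MuSC markers had been left out. The shares therefore follow in part from the assignment and cannot show how clean the groups were. The limits did not fall in a gap. Of 403 MOV cells of any lineage past the quiescent-marker limit, 148 lay within 25% of it. Another 225 fell short of it by no more than 25%. How many of these cells were MuSCs was not counted. The sham library held 1100 cells and 7302661 UMIs, the MOV library 3854 cells and 88498487 UMIs, and 44 barcodes occurred in both. Cells with 10% or more mitochondrial UMIs were left out, 32.9% of the sham and 20.6% of the MOV cells. Median depth in quiescent-marker MuSCs was 7912.5 UMIs in sham and 13219 in MOV, and in Pdgfra cells 10855.5 and 31908.5.

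The members took their largest share of transcripts outside the MuSC lineage. In sham they made up 4.71% of all UMIs of tenocytes, 4.4% of vascular cells and 3.01% of Pdgfra cells, against 1.58% of quiescent-marker MuSCs and 0.196% of fibre droplets. In MOV the order was the same but the steps were smaller, with 1.75% in tenocytes, 1.58% in vascular cells, 1.42% in Pdgfra cells and 1.23% in quiescent-marker MuSCs. The other MuSC groups of MOV stood lower, at 0.709% in matrix MuSCs, 0.499% in cycling MuSCs and 0.498% in Myog cells, and MOV fibre droplets held 0.266%. Many MOV MuSCs entered none of these groups: 339 cells passed no subgroup limit and 351 passed 2 or more. Their shares were 0.696% and 0.742%. Among MuSCs, quiescent-marker cells therefore had the highest share, and among all groups of cells an intermediate one. The comparisons of MuSC groups below leave these unassigned MuSCs out.

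**Figure D1:**
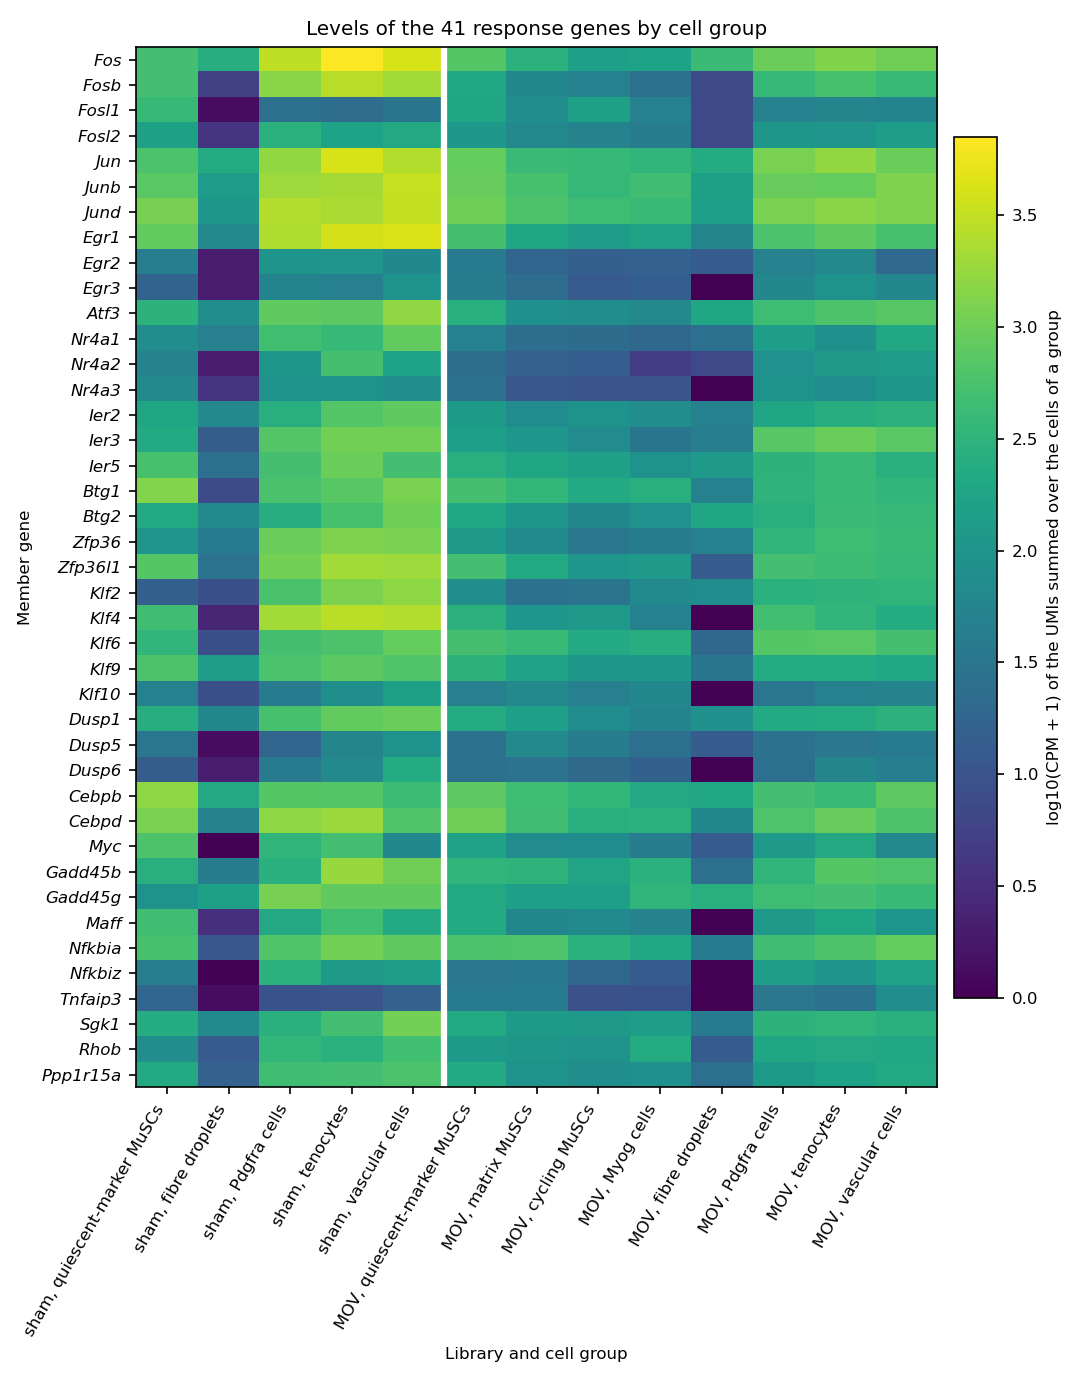
Level of each of the 41 response genes (rows) in each cell group with 10 cells or more (columns, sham to the left of the white line and MOV to its right), as log10(CPM + 1) of the UMIs summed over the group. The stromal columns of sham are the brightest and the fibre columns the darkest, and most rows fade from quiescent-marker MuSCs to cycling MuSCs and Myog cells.

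Counted per cell, quiescent-marker MuSCs again stood above the other MuSC groups and below the stromal groups. With every cell thinned to 2000 UMIs, the median number of member UMIs was 32 in sham quiescent-marker MuSCs (5th to 95th percentile 12.5 to 113), 49 in Pdgfra cells, 102 in tenocytes, 107 in vascular cells and 2 in fibre droplets. In MOV the medians were 21 in quiescent-marker MuSCs (9 to 54.8), 14 in matrix MuSCs, 10 in cycling MuSCs, 9 in Myog cells, 23 in Pdgfra cells, 27 in tenocytes and 30 in vascular cells. Cells with 40 or more member UMIs made up 33.3% of sham and 12.9% of MOV quiescent-marker MuSCs, but 2.55% of matrix MuSCs, 0.804% of cycling MuSCs and none of the 95 Myog cells that reached this depth, for which a count of 0 allows up to 3.16%. In stromal cells the share was higher, at 72.4% of Pdgfra cells, 90.0% of tenocytes and 90.0% of vascular cells in sham and 26.1%, 38.6% and 40.3% in MOV. The ranges of the groups overlapped widely.

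**Figure D2:**
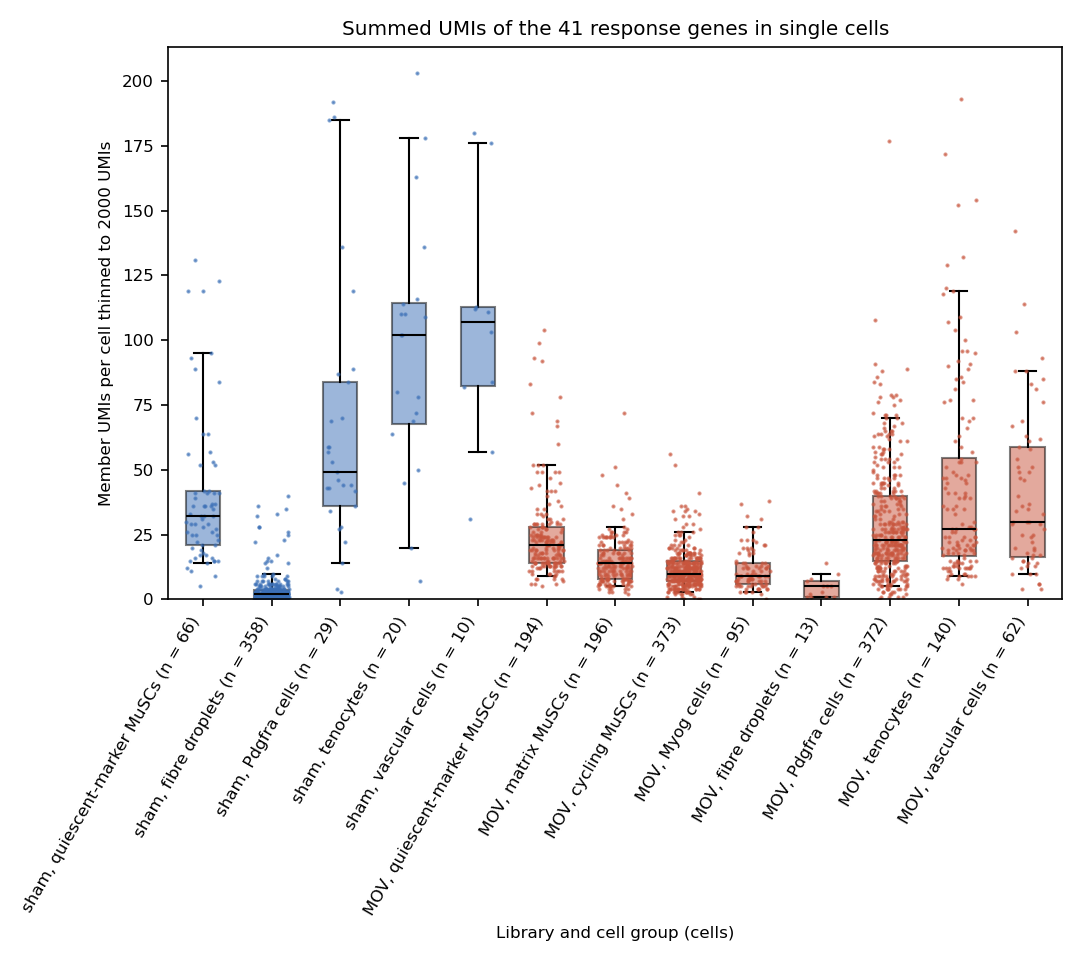
Member UMIs in each cell after thinning to 2000 UMIs (points), by library and cell group, with boxes at the quartiles, a line at the median and whiskers at the 5th and 95th percentile. Medians run from 2 in sham fibre droplets to 107 in sham vascular cells, and the 5 MOV columns of MuSCs and fibre droplets lie below those of MOV stromal cells.

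Within the MOV library, quiescent-marker MuSCs carried more transcripts of most members than the other MuSC groups. A member was called where its ratio was 2-fold or more and its interval lay on the same side of no difference, among genes with 20 or more UMIs in both groups together. Against cycling MuSCs, 28 of 41 members were higher, where 12.0% of all 11648 genes were, and 0 were lower, where 12.6% of genes were. Against Myog cells, 31 were higher, where 17.4% of genes were, and 0 lower, where 13.8% were. Against matrix MuSCs, 16 were higher, where 5.18% of genes were, and 1 lower, where 5.08% were. The median log2 ratio of the members was 1.19, 1.41 and 0.80 in these 3 comparisons, and that of all genes counted -0.01, 0.08 and -0.03. These comparisons share the quiescent-marker cells. Under each of 12 alternative settings (other limits for markers, mitochondrial UMIs, depth, doublets and scaling), 16 of the members kept the call against cycling MuSCs, 19 against Myog cells and 6 against matrix MuSCs, and with cells of overlapping subgroups kept in their leading group 9 rather than 16 were higher than in matrix MuSCs.

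Of 9 AP-1 members, 8 were higher in quiescent-marker MuSCs than in cycling MuSCs, 8 than in Myog cells and 6 than in matrix MuSCs. Fos, which dimerizes with Jun proteins to form AP-1, stood at 690 CPM (counts per 1000000 UMIs, interval 660 to 722) in quiescent-marker MuSCs, 302 in matrix MuSCs, 146 in cycling MuSCs and 169 in Myog cells. Fosb, its close paralogue, stood at 196, 62.9, 47.5 and 25.7 CPM in the same order. Jun stood at 879, 424, 386 and 344 CPM. For these 3 genes the quiescent-marker level lay above the other 3 with no overlap of counting intervals. Against matrix MuSCs, though, the calls of Fos and Jun did not hold under all 12 settings, while that of Fosb did. The call of Jun against cycling MuSCs did not hold under all 12 either. In quiescent-marker MuSCs 5 cells held 36.1% of the Fos UMIs. Atf3, a stress-induced AP-1 partner, stood at 260 CPM against 84.4, 79.1 and 65.1, and Maff, a small Maf protein, at 223 CPM against 57.6, 67.8 and 51.5. The log2 ratio was 2.93 (2.63 to 3.24) for Fosb over Myog cells, 2.24 (2.16 to 2.33) for Fos over cycling MuSCs and 1.95 (1.75 to 2.15) for Maff over matrix MuSCs. Fosl1, a Fos relative, differed in pattern: at 187 CPM in quiescent-marker and 156 CPM in cycling MuSCs the log2 ratio was 0.26, below the call, while matrix MuSCs and Myog cells held 77.6 and 48.0 CPM.

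All 3 EGR members were higher than in cycling MuSCs and Myog cells, and 2 of 3 than in matrix MuSCs. Egr1, a zinc-finger factor induced by SRF, stood at 512 CPM in quiescent-marker MuSCs, 191 in matrix MuSCs, 129 in cycling MuSCs and 163 in Myog cells. Its log2 ratio was 1.42, 1.99 and 1.65 against the 3 groups. Klf4 stood at 295, 103, 116 and 47.7 CPM, with a log2 ratio of 2.63 over Myog cells. Klf2 reached 77.7 CPM in quiescent-marker MuSCs and 66.8 in Myog cells, a log2 ratio of 0.22 with an interval that includes 0, but 26.8 in matrix and 29.6 in cycling MuSCs. Myc, the growth-promoting factor, stood at 164, 71.2, 74.3 and 41.8 CPM. The C/EBP factor Cebpd stood at 1040, 471, 261 and 283 CPM. Cycling MuSCs, the proliferating group, held a lower level of Myc than quiescent-marker MuSCs, with a log2 ratio of 1.14 (0.98 to 1.30). That call did not hold under all 12 settings, nor did that of Klf4 against cycling MuSCs. Against matrix MuSCs the calls of Egr1, Myc and Cebpd did not hold under all 12.

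Among the brakes of the response the pattern was less uniform. Zfp36l1, which destabilizes AU-rich transcripts, stood at 508 CPM in quiescent-marker MuSCs and at 216, 104 and 115 CPM in matrix MuSCs, cycling MuSCs and Myog cells. The log2 ratio of 2.29 (2.19 to 2.39) over cycling MuSCs was the highest of any member there. Dusp1, a nuclear MAP kinase phosphatase, stood at 237 CPM against 150, 74.5 and 54.2. Dusp5 ran the other way: 27.5 CPM in quiescent-marker and 63.1 CPM in matrix MuSCs gave a log2 ratio of -1.20 (-1.57 to -0.84), the only member lower in that comparison and lower under all 12 settings. Nfkbia, the inhibitor that holds NF-kB in the cytoplasm, stood at 616 CPM in matrix and 578 CPM in quiescent-marker MuSCs, and Tnfaip3, which limits NF-kB signalling, at 36.8 and 38.1 CPM, whereas cycling MuSCs held 8.07 CPM of Tnfaip3. Ier3, an early response gene with a part in cell survival, was at 148 CPM against 30.9 in Myog cells, a log2 ratio of 2.26.

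Committed cells led for 1 member. Rhob, a small GTPase, stood at 233 CPM in Myog cells, the highest of the 8 MOV groups though within counting error of the 207 CPM of tenocytes, and at 123 CPM in quiescent-marker MuSCs, a log2 ratio of -0.92 (-1.10 to -0.74) that missed the 2-fold call. Gadd45g, a growth-arrest gene, stood at 325 CPM in Myog cells and 215 CPM in quiescent-marker MuSCs, with a log2 ratio of -0.59. Klf10 stood at 61.5 and 47.0 CPM. By role, the median log2 ratio of quiescent-marker MuSCs over Myog cells was 1.97 for 9 AP-1 members and 1.36 for 4 RNA-decay and antiproliferative members, but -0.13 for Sgk1 and Rhob.

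**Figure D3:**
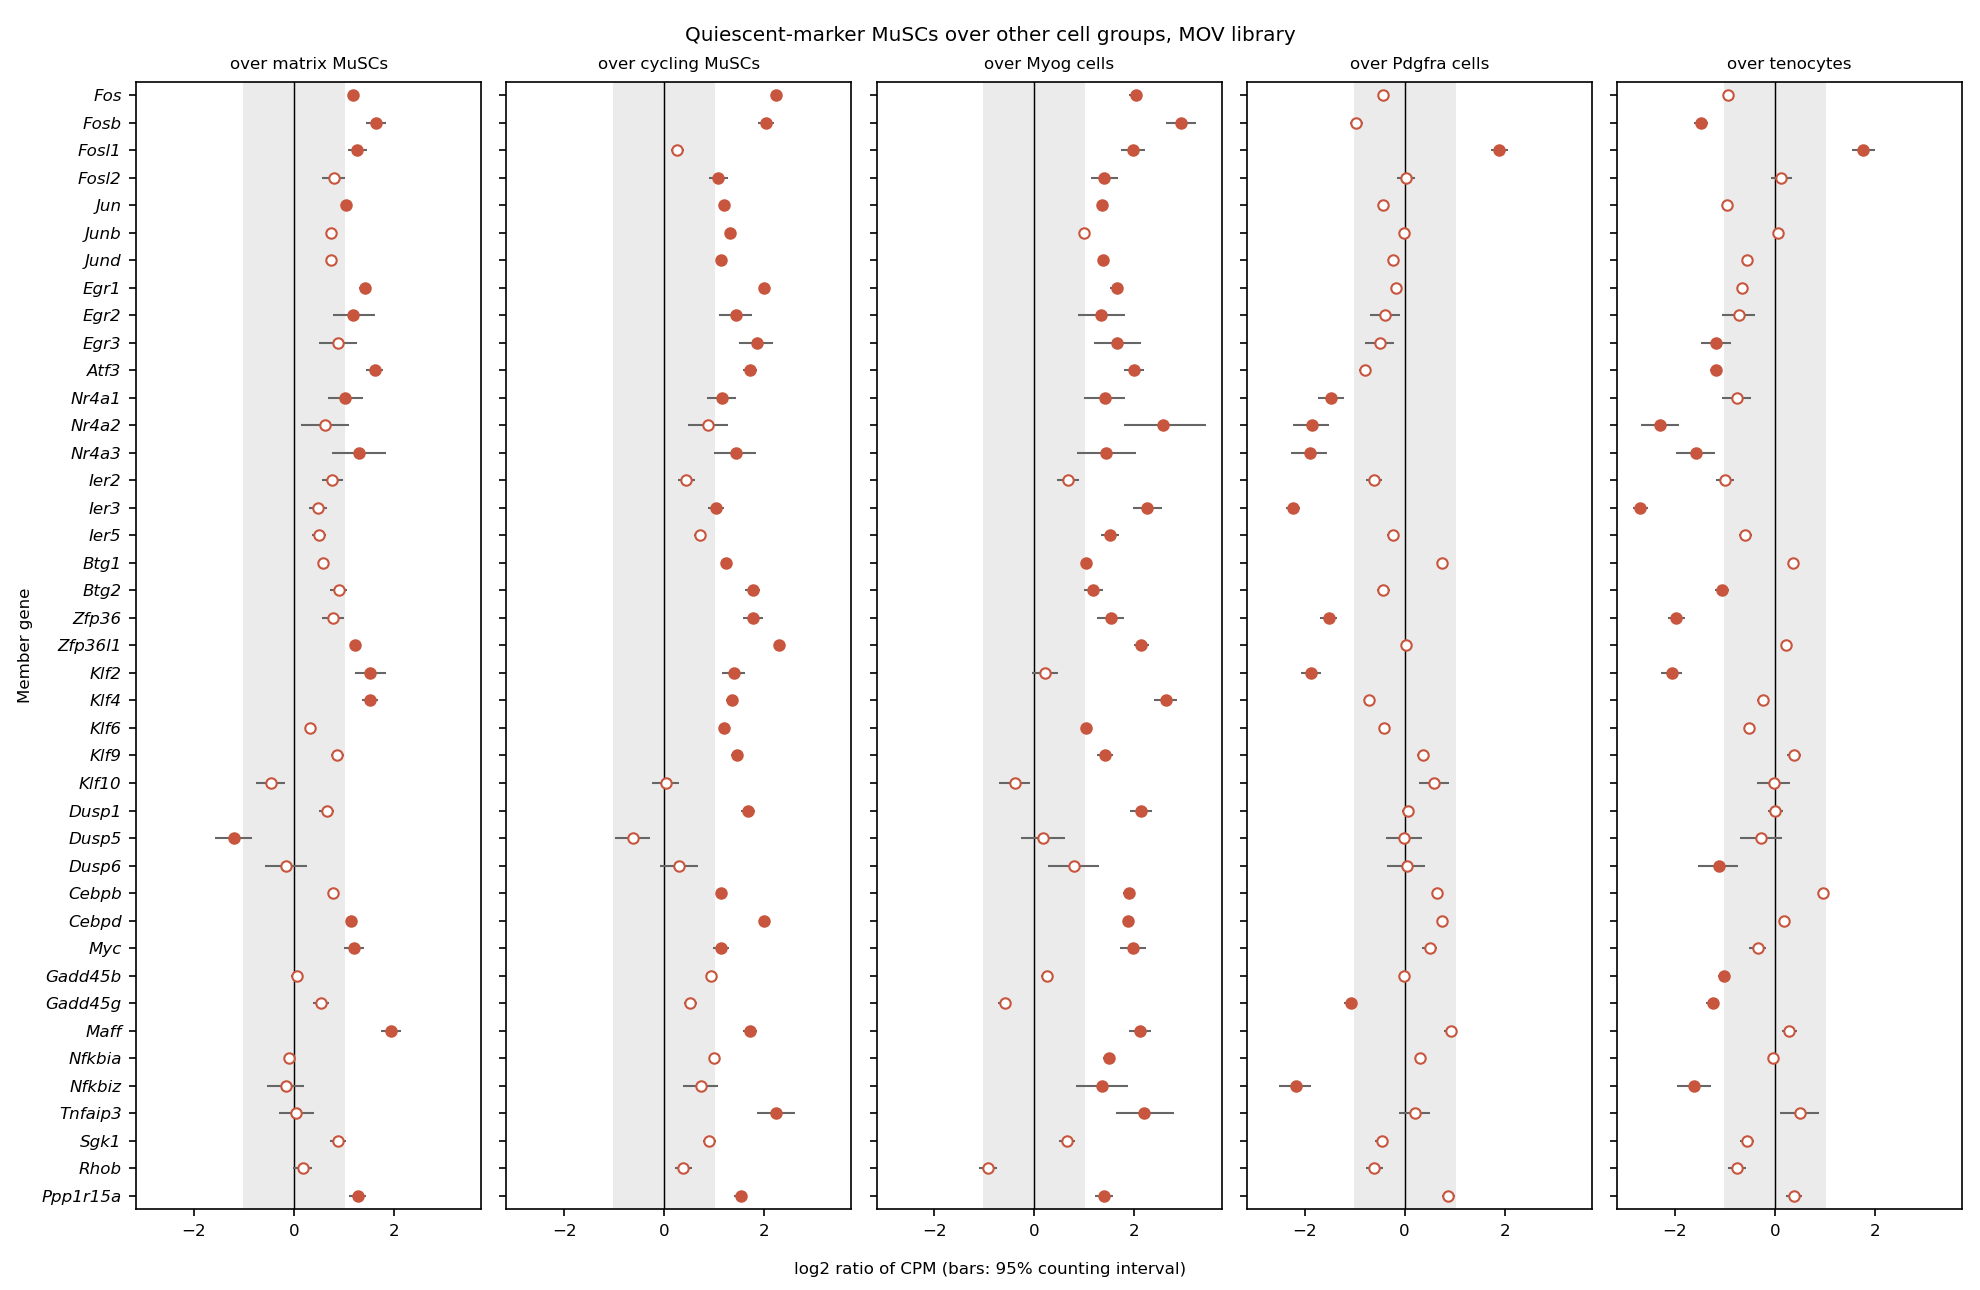
log2 ratio of CPM in quiescent-marker MuSCs over 5 other groups of the MOV library (panels) for each member, with bars for the 95% counting interval and grey for differences under 2-fold. Filled points are called, and they lie to the right of 0 against matrix MuSCs, cycling MuSCs and Myog cells, with Dusp5 the exception, and mostly to the left of 0 against Pdgfra cells and tenocytes, where Fosl1 is the exception.

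Set against stromal cells of the same library, few members were called higher in quiescent-marker MuSCs. Against MOV Pdgfra cells, 1 of 41 members was higher in quiescent-marker MuSCs, where 10.8% of all genes were, and 8 were lower, where 19.8% of genes were. Against tenocytes 1 was higher, where 12.7% of genes were, and 13 were lower, where 16.6% were. Against vascular cells 3 were higher, where 10.5% were, and 11 lower, where 17.9% were. The share called lower, 8 of 41 for Pdgfra cells, was near the background of all genes, and that for tenocytes and vascular cells above it. The median log2 ratio of the members was -0.23, -0.59 and -0.48, and that of all genes -0.09, 0.08 and -0.02. Depth differed between the groups, at a median of 13219 UMIs in quiescent-marker MuSCs and 31908.5, 18601 and 14061 in the others. With cells thinned to 2000 UMIs the median of the members was -0.40 against Pdgfra cells and -0.78 against vascular cells, beside -0.06 and 0.11 for all genes. With marker limits doubled these medians were -0.06 and -0.23, beside -0.03 and -0.1 for all genes, with 4 and 5 members higher. The median against Pdgfra cells was then near that of all genes.

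The members called lower in MuSCs were spread over several roles. All 3 NR4A orphan nuclear receptors were lower than in Pdgfra cells: Nr4a1 at 49.1 against 136 CPM, Nr4a2 at 24.0 against 87.3 CPM, and Nr4a3 at 25.1 against 93.6 CPM. Ier3 stood at 148 CPM in quiescent-marker MuSCs against 698 CPM in Pdgfra cells, 953 in tenocytes and 727 in vascular cells. Its log2 ratio was -2.24, -2.69 and -2.30, and the call of lower held under all 12 settings in each of these comparisons. Zfp36, a decay factor for cytokine transcripts, stood at 117 CPM against 337, 459 and 401, and Klf2, a factor known from endothelium, at 77.7 CPM against 285, 323 and 336. Nfkbiz, an inducible nuclear IkB protein, stood at 31.4 CPM against 143, 95.9 and 164. Fos stood at 690 CPM against 927, 1330 and 1040, and Egr1 at 512 against 575, 808 and 532, differences under 2-fold in each case.

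Fosl1 was the exception. It stood at 187 CPM in MOV quiescent-marker MuSCs (172 to 204) against 50.6 in Pdgfra cells (46.7 to 54.6), 55.1 in tenocytes (48.1 to 62.8) and 53.2 in vascular cells (41.8 to 66.7). In sham it stood at 376 CPM (330 to 426) against 25.5 (11.7 to 48.4), 23.1 (7.49 to 53.8) and 30.8 (8.39 to 78.8). Intervals of MuSCs and stromal cells did not overlap in either library, and the log2 ratio over Pdgfra cells was 1.89 (1.72 to 2.06) in MOV and 3.88 (2.93 to 5.03) in sham. Both calls held under all 12 settings. The UMIs were spread over cells, with 48 of 66 sham and 140 of 195 MOV quiescent-marker MuSCs holding at least 1 and the 5 highest cells holding 25.9% and 13.4% of them. In shares of cells thinned to 2000 UMIs, a Fosl1 UMI was found in 45.5% of sham quiescent-marker MuSCs (33.1 to 58.2%) and 25.3% of MOV ones (19.3 to 32.0%), against 3.45% and 8.87% of Pdgfra cells. No UMI was found in the 358 sham fibre droplets of that depth, which allows a share of up to 0.838%. Without thinning the shares were 72.7% and 71.8% in MuSCs and 13.3% and 55.4% in Pdgfra cells.

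Besides Fosl1, Myc (164 against 63.1 CPM) and Maff (223 against 105 CPM) were called higher in MOV quiescent-marker MuSCs than in vascular cells, and no member but Fosl1 was called higher than in Pdgfra cells or tenocytes. Btg1, an antiproliferative protein linked to RNA decay, stood at 525 CPM in quiescent-marker MuSCs, the highest of the 8 groups, with 408 in tenocytes, 345 in vascular cells, 314 in Pdgfra cells and 222 in cycling MuSCs. Maff stood at 223 CPM against 182 in tenocytes and 118 in Pdgfra cells, a log2 ratio of 0.92 over Pdgfra cells. Ppp1r15a, the stress-induced subunit that reverses eIF2 phosphorylation, stood at 226 CPM against 173 in tenocytes and 123 in Pdgfra cells, and 220 in vascular cells. Over all members in MOV, the highest level was in tenocytes for 17, vascular cells for 13, quiescent-marker MuSCs for 7 (Fosl1, Btg1, Zfp36l1, Klf9, Cebpd, Maff and Ppp1r15a), matrix MuSCs for 2 (Klf10 and Dusp5), and Pdgfra cells (Klf4) and Myog cells (Rhob) for 1 each. For Zfp36l1, Ppp1r15a and Klf10 the leading MuSC level was within counting error of the next group. Tenocytes led for Fos, Fosb, Jun, Jund and the EGR genes, and vascular cells for Junb, Atf3, the NR4A genes and Klf2, although for Nr4a2, Nr4a3 and Klf2 the next group was within counting error. In sham, with 5 groups, vascular cells led for 17 members, tenocytes for 15, quiescent-marker MuSCs for 5 (Fosl1, Btg1, Cebpb, Myc and Tnfaip3) and Pdgfra cells for 4. Among those 5, the MuSC level of Btg1, Myc and Tnfaip3 was within counting error of the next group.

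In the sham library more members were called lower in MuSCs than in Pdgfra cells. Against sham Pdgfra cells, 4 of 40 members counted were higher in quiescent-marker MuSCs, where 14.7% of all genes were, and 21 were lower, where 18.0% were. The median log2 ratio was -1.06 for members and 0.04 for all genes. Fos stood at 494 CPM in quiescent-marker MuSCs and 3020 in Pdgfra cells, with 7110 in tenocytes and 4100 in vascular cells. Egr1 stood at 833 against 2490 CPM, Jun at 575 against 1660 CPM, Klf4 at 473 against 2070 CPM and Atf3 at 303 against 824 CPM. Klf2 was nearly absent from sham quiescent-marker MuSCs, at 14.1 CPM, where Pdgfra cells held 558 CPM. The log2 ratio was -5.30 (-6.45 to -4.35). Gadd45g stood at 94.3 against 1170 CPM and Zfp36 at 102 against 971 CPM. The 4 members higher in MuSCs were Fosl1, Btg1 (1380 against 558 CPM), Cebpb (1560 against 682 CPM) and Maff (465 against 210 CPM), while Myc stood at 600 against 345 CPM, a log2 ratio of 0.80. With each cell thinned to 2000 UMIs, 12 of the 33 members then counted were lower, with a median of -0.55 beside 0.25 for all genes. The thinned median in MOV was -0.40 over 41 members, beside -0.06 for all genes. Whether the libraries differed in this distance was not tested.

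These sham values rest on few cells. In sham quiescent-marker MuSCs, 26 of 66 cells held a Fos UMI and 5 cells held 78.0% of them. In sham Pdgfra cells, 19 of 30 held one and 5 cells held 78.1%. Leaving out the highest cell lowered Fos to 371 CPM in MuSCs and 2050 CPM in Pdgfra cells. Egr1 was more even in MuSCs, with 54 of 66 cells holding a UMI and 44.3% of UMIs in 5 cells. A few strongly Fos-high cells thus set the Fos level of sham MuSCs, and the counting interval does not cover that spread.

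Fibre droplets, which should hold few MuSC transcripts, served as a reference. Whether their member UMIs came from the fibres or from the suspension was not tested. In sham, 34 of 38 members counted were higher in quiescent-marker MuSCs than in fibre droplets, where 43.9% of all genes were, and 0 were lower, where 23.4% were. In MOV, 29 of 41 were higher, where 25.4% were, and 0 lower, where 10.1% were. The median log2 ratio was 3.8 in sham and 1.97 in MOV, and that of all genes 0.64 and 0.46. With TMM scaling the sham median was 2.81, since fibre droplets then took a scaling factor of 0.5347. Myc had 0 UMIs in sham fibre droplets and 600 CPM in MuSCs, and with the floor of 3 UMIs for the fibre group the log2 ratio was at least 9.28. Btg1 stood at 6.76 CPM in fibre droplets, Klf4 at 1.61, Maff at 2.25 and Fosl1 at 0.322 CPM, the last from 1 UMI, with a log2 ratio of 10.19 (7.70 to 15.50).

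The 4 members counted but not called higher than in sham fibre droplets were Fos, Gadd45g, Nr4a1 (77.0 against 46.3 CPM) and Klf2 (14.1 against 7.72 CPM). Sham fibre droplets held 779 Fos UMIs (251 CPM) but 14 Fosb UMIs (4.50 CPM), while Pdgfra cells held 1065 and 519, tenocytes 1542 and 592, and sham quiescent-marker MuSCs 314 of each. The Fos UMIs of fibre droplets therefore stood in another proportion to Fosb than those of these 3 sham groups. Gadd45g stood at 155 CPM in sham fibre droplets, above the 94.3 CPM of quiescent-marker MuSCs, with a log2 ratio of -0.72 (-1.13 to -0.33). In cells thinned to 2000 UMIs, a Fos UMI was found in 21.2% of sham quiescent-marker MuSCs (12.1 to 33.0%) and in 17.0% of fibre droplets (13.3 to 21.3%). These intervals overlap, and in Pdgfra cells the share was 51.7%. Unthinned, 39.4%, 28.1% and 63.3% of cells held one, and the median depth of the groups was 7912.5, 3760 and 10855.5 UMIs. Since the source of the fibre Fos UMIs was not tested, the overlap of the thinned shares cannot tell Fos of the MuSCs from Fos carried over. Fosb, at 43.9% of MuSCs and 1.12% of fibre droplets, and Myc, at 66.7% and none of 358, stood clear of the fibre share.

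Between the libraries, more members were called lower than higher in MOV in each group compared. In quiescent-marker MuSCs, 4 of 41 were higher in MOV than in sham, where 8.75% of all genes were, and 8 were lower, where 4.59% were. In Pdgfra cells 1 was higher, where 6.45% were, and 17 were lower, where 9.37% were. In tenocytes 2 were higher, where 8.09% were, and 20 were lower, where 10.1% were. In vascular cells 1 was higher, where 9.95% were, and 25 were lower, where 11.7% were. The median log2 ratio was -0.20, -0.86, -0.94 and -1.34 in these groups, and that of all genes counted 0.17, -0.16, -0.04 and 0.02. All 4 comparisons use the same pair of libraries, the sham stromal groups hold 30, 20 and 11 cells, and the difference between the cell groups was not tested. Sham and MOV vascular cells were not alike in makeup, with a median of 51.6 and 3.2 UMIs of endothelial markers per 10000, and the part of this in their ratios was not tested. With each cell weighted the same, 13 rather than 8 members were lower in quiescent-marker MuSCs and 13 rather than 20 in tenocytes, with medians of -0.56 and -0.65. With thinned cells the median in quiescent-marker MuSCs was -0.68, and TMM scaling left 8 rather than 17 lower in Pdgfra cells.

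Klf4, Egr1 and Fos were lower in MOV in every stromal group. Klf4 stood at 2070 CPM in sham and 483 CPM in MOV Pdgfra cells, 2830 and 346 CPM in tenocytes, and 2520 and 242 CPM in vascular cells. Egr1 stood at 2490 and 575 CPM, 4080 and 808 CPM, and 4520 and 532 CPM. Fos stood at 3020 and 927 CPM, 7110 and 1330 CPM, and 4100 and 1040 CPM. The log2 ratios ran from -1.70 (Fos in Pdgfra cells) to -3.38 (Klf4 in vascular cells), and these calls held under all 12 settings in each group. In quiescent-marker MuSCs the same genes differed by less than 2-fold: Klf4 stood at 473 and 295 CPM, Egr1 at 833 and 512 CPM, and Fos at 494 and 690 CPM. The Fos value was not stable, with a log2 ratio of 0.48 that ran from -0.45 with thinned cells to 1.25 with a stricter limit for MuSC markers. Atf3, at 303 and 260 CPM, had an interval that includes 0.

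Other members differed between the libraries in MuSCs too. Myc stood at 600 CPM in sham and 164 CPM in MOV quiescent-marker MuSCs, a log2 ratio of -1.87 (-2.07 to -1.67). Btg1 stood at 1380 and 525 CPM, a ratio of -1.40 (-1.52 to -1.28), and Fosb at 494 and 196 CPM, a ratio of -1.34 (-1.54 to -1.13). These 3 calls held under all 12 settings. Fosl1 stood at 376 and 187 CPM, a log2 ratio of -1.0 on the limit of the call, and Maff at 465 and 223 CPM, a ratio of -1.06. Cebpb, a C/EBP factor, stood at 1560 and 782 CPM, a ratio of -1.0 that just missed the call. In Pdgfra cells Myc was also lower in MOV, at 345 and 116 CPM, and Btg1 stood at 558 and 314 CPM, a ratio of -0.83.

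Klf2 was the only member higher in MOV quiescent-marker MuSCs under all 12 settings. It stood at 14.1 CPM in sham (6.47 to 26.9) and 77.7 CPM in MOV (67.7 to 88.6), a log2 ratio of 2.46 (1.51 to 3.60). The sham value came from 9 UMIs in 4 of 66 cells, and the MOV value from 220 UMIs in 49 of 195 cells, of which 1 cell held 60, so that without it MOV stood at 56.5 CPM. In thinned cells a Klf2 UMI was found in 3.03% of sham MuSCs (0.369 to 10.5%) and in 7.73% of MOV ones (4.39 to 12.4%), shares whose intervals overlap. In fibre droplets it was found in 0.838% of 358 in sham and 7.69% of 13 in MOV. The sham MuSC interval includes the sham fibre share, and 13 droplets are too few to set the MOV share against. Without thinning the MuSC shares were 6.06% and 25.1%, and those of fibre droplets 2.19% and 16.7%. The median share of Pdgfra-cell markers in these MuSCs was 0 per 10000 UMIs in sham and 1.17 in MOV, and its part in the Klf2 difference was not tested. Gadd45g (94.3 and 215 CPM), Egr3 (15.7 and 42.0 CPM) and Tnfaip3 were also called higher.

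**Figure D4:**
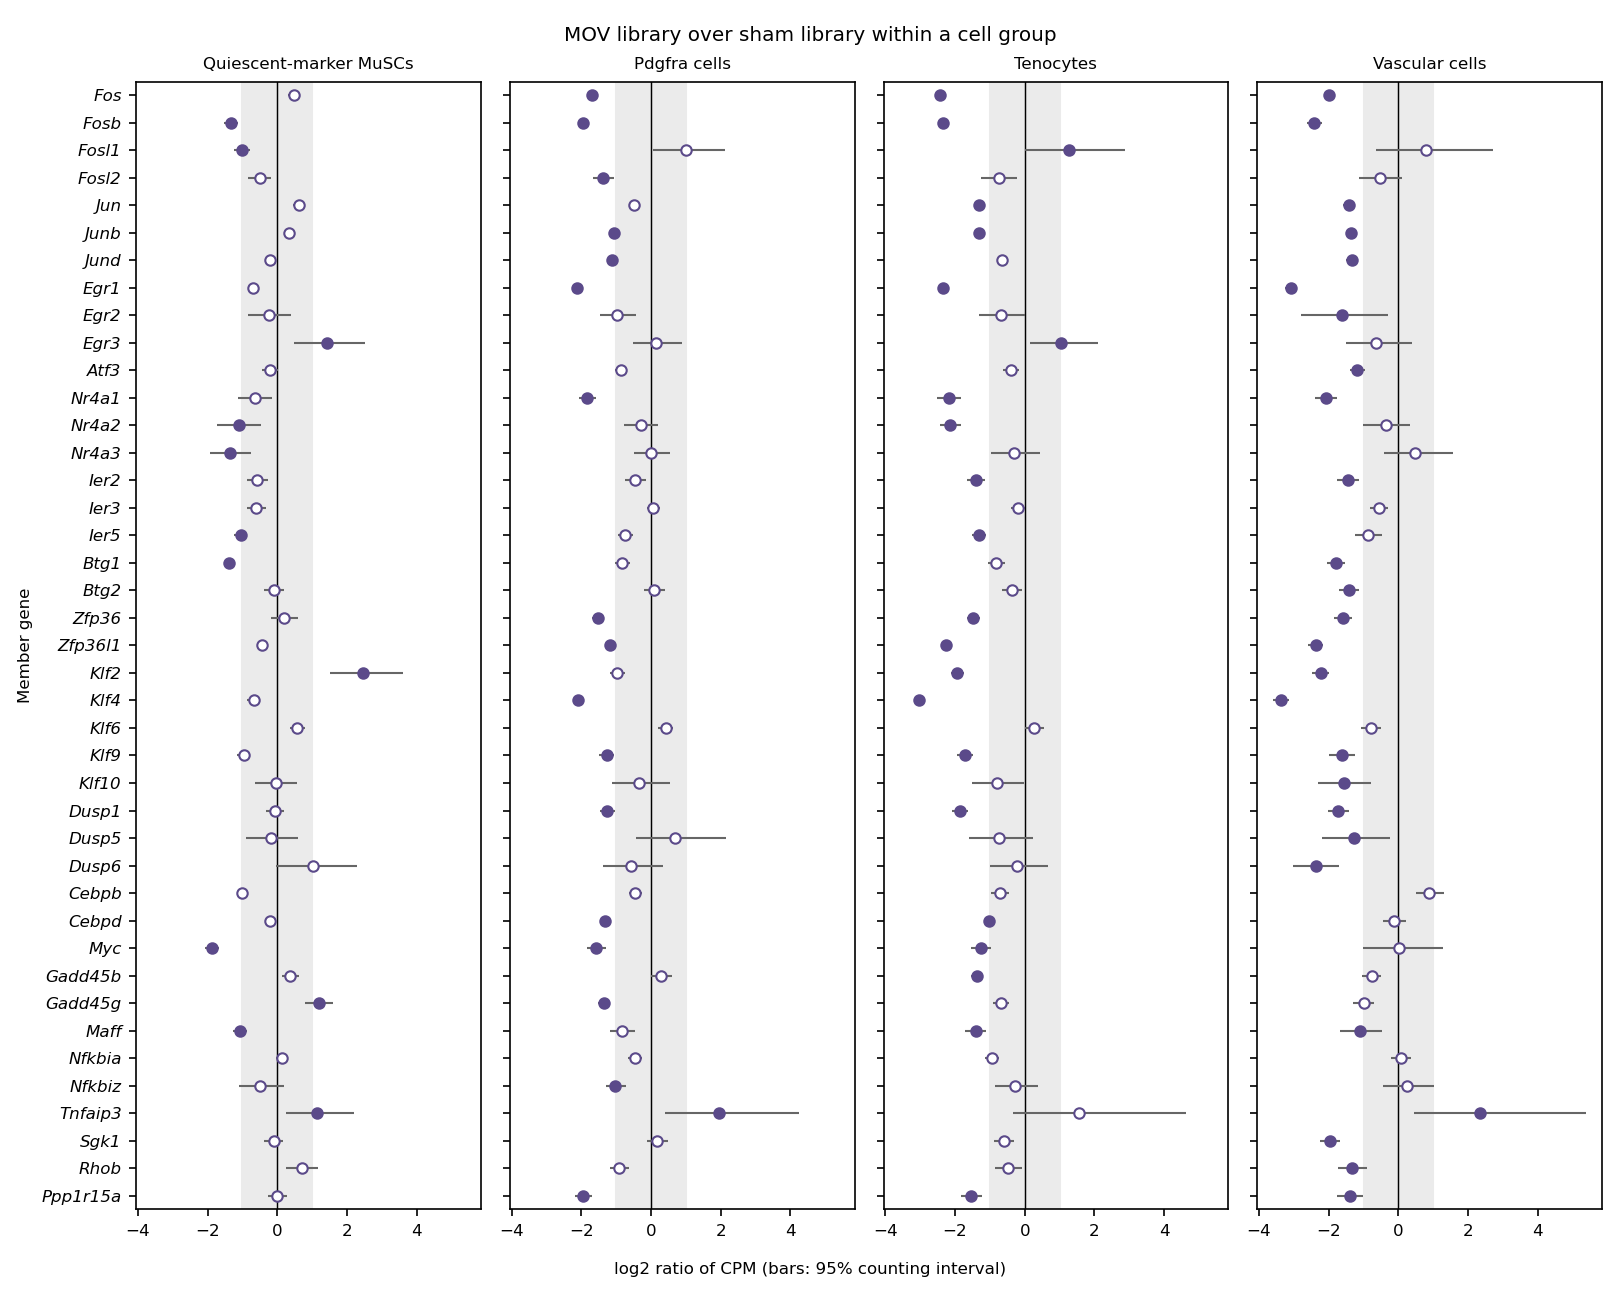
log2 ratio of CPM in the MOV over the sham library for each member in 4 cell groups (panels), with bars for the 95% counting interval, grey for differences under 2-fold and filled points for calls. In quiescent-marker MuSCs points scatter on both sides of 0 (4 higher, 8 lower), and in the 3 stromal groups most lie to the left (17, 20 and 25 lower).

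**Figure D5:**
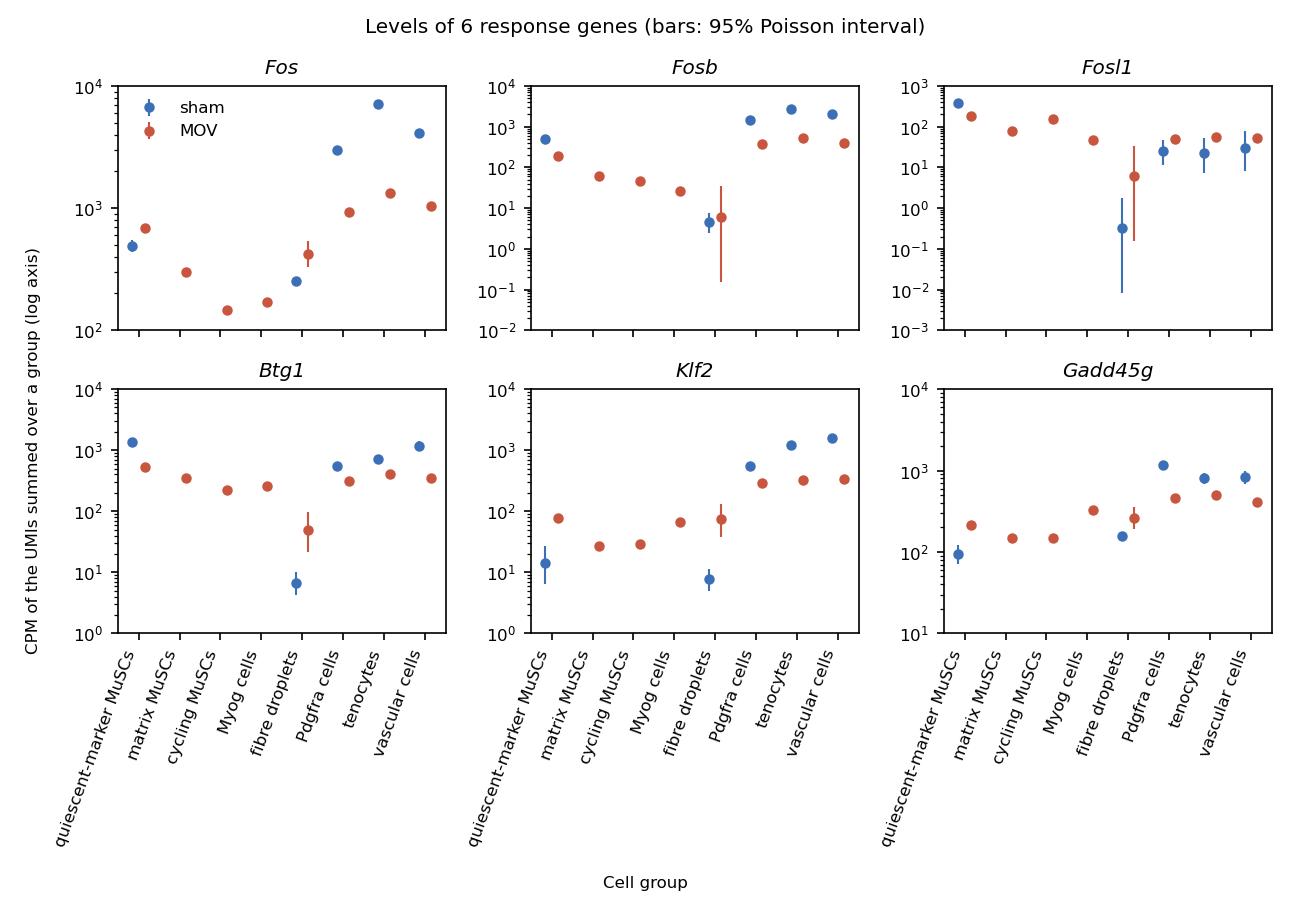
CPM of 6 members in each cell group with 10 cells or more (log axis), sham in blue and MOV in red, with bars for the 95% Poisson interval. Fos and Fosb are highest in sham stromal cells, Fosl1 is highest in quiescent-marker MuSCs of both libraries, and Klf2 is higher in MOV than in sham in MuSCs (77.7 against 14.1 CPM) and lower in tenocytes (323 against 1230 CPM).

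Lists of genes of the pathways that act on the members were read against the 12.0% of all genes that were higher in quiescent-marker than in cycling MuSCs. Against Myog cells that share was 17.4%. Of 10 genes of SRF and its partners and kinases, 2 were higher in quiescent-marker than in cycling MuSCs (Elk3, at 24.0 against 11.3 CPM, and Elk4, at 54.7 against 23.3 CPM, both ternary complex factors), 0 were lower, and the median log2 ratio was 0.03. That count is near the share of all genes. Of 8 CREB genes, 3 were higher and 0 lower, with a median of 0.87, among them Crem, at 68.1 against 25.7 CPM. Among AP-1 partners, Mafk, a small Maf protein, was higher, at 63.9 against 17.9 CPM. Of 9 NF-kB subunits and targets, 6 were higher and 0 lower, with a median of 1.14 beside 1.19 for the members, and against Myog cells 7 were higher, with a median of 2.22 beside 1.41. They included the chemokines Cxcl1, at 926 against 280 CPM, and Ccl2, at 824 against 308 CPM.

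Against MOV Pdgfra cells, 1 of the 9 NF-kB genes was higher in quiescent-marker MuSCs, where 10.8% of all genes were, and 3 were lower, where 19.8% were, with Ccl2 at 824 against 2610 CPM. Between the libraries, Cxcl1 stood at 2550 CPM in sham and 926 CPM in MOV quiescent-marker MuSCs, and Nfkb1 at 478 and 231 CPM. In tenocytes Cxcl1 ran the other way, at 64.6 CPM in sham, from 14 UMIs, and 1330 CPM in MOV.

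Heat shock genes that are known to be induced while cells are handled ran with the members within the MuSC lineage and against them toward stromal cells. Of 8 such genes, 4 were higher in quiescent-marker than in cycling MuSCs, where 12.0% of all genes were, with a median log2 ratio of 1.0: Hspa1a stood at 2080 against 750 CPM, Hspa1b at 2180 against 769 CPM, Dnajb1 at 392 against 143 CPM and Hspb1 at 2330 against 1090 CPM. Against MOV Pdgfra cells, where few members were higher in MuSCs, 2 of the 8 were, beside 10.8% of all genes, with Hspa1a at 2080 against 868 CPM. Against MOV tenocytes 4 were higher, beside 12.7% of genes, with a median of 0.88 where that of the members was -0.59. Against sham Pdgfra cells 6 were higher, beside 14.7% of genes, with a median of 1.32 where that of the members was -1.06. In these 3 comparisons 0 were lower. Between the libraries Hspa1a stood at 2110 CPM in sham and 2080 CPM in MOV quiescent-marker MuSCs, and at 640 and 868 CPM in Pdgfra cells. In MuSCs Hspb1 was the 1 of 8 called higher in MOV, where 8.75% of all genes were, at 951 and 2330 CPM. The part of cell handling in the members' levels was not tested.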

How the data were processed

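Cells of 2 libraries, sham and MOV, were profiled by 10x 3′ single-cell RNA sequencing, with 1 library per condition. Per the labels and the methods, the authors aligned reads to mm10 with Cell Ranger 6.0.0 and deposited a filtered matrix of UMI counts per gene and cell for each library, with no normalization. Reads of 1 transcript share a UMI and were collapsed by the authors, so the counts are molecules captured. The submitters' notes also list Seurat 4.0.2 and R 4.0.2, whose filtered objects and cell names were not used here. The members, marker lists and pathway lists were chosen with earlier results of these data known.

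Cells were kept when less than 10% of their UMIs were mitochondrial. A cell entered a group when its UMIs of a marker list passed a limit per 10000 UMIs and a minimum number of different markers: 3 and 2 for the MuSC lineage, 5 and 3 for the quiescent-marker list, 20 and 3 for the matrix list, 10 and 3 for cycling, 20 and 3 for Myog, 500 and 3 for fibre, 10 and 3 for Pdgfra, 20 and 3 for tenocytes, 10 and 3 for endothelial and 20 and 4 for mural cells. A cell past the Myog limit also counted as MuSC lineage, whatever its MuSC markers, so Myog cells need not have held any. These limits were set after the data had been seen, so group sizes are not results. Cells past the limits of 2 lineages (209 in MOV), or of 2 MuSC subgroups, were left out, which also served as the treatment of doublets. MuSCs past no subgroup limit entered no group either. For each group the UMIs of its cells were added up and given as CPM (counts per 1000000 UMIs). Ratios carry exact conditional 95% intervals, CPM exact Poisson and shares exact Clopper-Pearson intervals. Without replicates no test was run. A group with 0 UMIs was set at 3 UMIs, and its ratio is a lower bound. Ratios within sham and between libraries for groups of 10 to 50 cells were added after the data had been seen.

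In each comparison the 5 members with the interval bound farthest above 0 and the 5 farthest below it were candidates for naming, together with Fos, Jun, Egr1, Atf3, Myc and Klf4. Other members named (Klf2 and Tnfaip3 in MuSC groups, Fosl1 against cycling MuSCs, Rhob, Nfkbiz and the members listed by highest group) were chosen after their values were seen. Pathway lists were given by counts with up to 2 genes in each direction, or a few more where seen to be called. The calculation of ratios and calls was tested on simulated data. Python 3.11.15 with numpy 2.4.6, scipy 1.17.1 and pandas 2.3.3 was used, with matplotlib 3.10.9 for plots and edgeR 4.0.16 under R 4.3.3 for TMM scaling factors only. Alternatives were mitochondrial limits of 5% and 20% and none, doubled marker limits, cells of 2 lists kept, removal of doublet-like cells, TMM scaling, totals without mitochondrial and fibre genes, equal weight per cell, thinning to 2000 UMIs (4000 or none for shares), no minimum count and, added after the data had been seen, a stricter MuSC limit of 5 per 10000. With the stricter MuSC limit, passing the Myog limit no longer placed a cell in the MuSC lineage by itself. Promoter windows were taken from RefSeq (GRCm38.p6), with Egr1 and 7 other members not among those matched.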

Additional observations from a re-analysis of the deposited data

Results flagged for a closer look

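The MOV over sham difference ran in opposite directions in quiescent-marker MuSCs and in another cell group for 3 members, and in each case the difference between the cell groups was not tested. Only the Klf2 calls held under all 12 settings. Klf2 had a log2 ratio of 2.46 in quiescent-marker MuSCs, -1.93 in tenocytes and -2.23 in vascular cells, which differed in endothelial markers between the libraries. Gadd45g had a log2 ratio of 1.19 in quiescent-marker MuSCs, where 5 sham cells held 68.3% of its sham UMIs, and -1.36 in Pdgfra cells. Fosl1 had a log2 ratio of -1.0 in quiescent-marker MuSCs and 1.26 in tenocytes, where all 5 sham UMIs came from 1 cell.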

How the results depend on the processing

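No paired analysis was possible because each condition has 1 library. Over 12 settings, 4927 member ratios stayed within their counting interval, 1212 moved beyond it on the same side of 0 or without a call and 8 called ratios changed sign. Where a value moved, the cause was not tested. Counts below are of members called higher or lower, and medians are of the members' log2 ratios.

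With cells of 2 lists kept in their leading list, quiescent-marker over matrix MuSCs had 9 higher, and MOV over sham had 0 higher in Pdgfra cells and 1 in tenocytes. With marker limits doubled, 1 was lower than in cycling MuSCs, the median over Myog cells was 1.92, against Pdgfra cells in MOV 4 were higher with a median of -0.06, against vascular cells 5 with a median of -0.23, 1 was lower than in sham fibre droplets, and 1 was higher in MOV tenocytes. With each cell weighted the same, medians were 1.01 over cycling MuSCs, -0.88 against tenocytes, -0.81 against vascular cells and -0.53 against sham Pdgfra cells, 2 members were higher than in MOV Pdgfra cells, and MOV over sham had 13 lower and a median of -0.56 in quiescent-marker MuSCs, 2 higher in Pdgfra cells, 1 higher and 13 lower with a median of -0.65 in tenocytes and a median of -0.97 in vascular cells.

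With cells thinned to 2000 UMIs, medians were 1.00 over cycling MuSCs, 1.19 over Myog cells with 1 lower, -0.40 against MOV Pdgfra cells with 3 higher, -0.78 against vascular cells and -0.55 against sham Pdgfra cells with 12 lower, and 17 were higher than in MOV fibre droplets. MOV over sham then had 2 higher with a median of -0.68 in quiescent-marker MuSCs, 0 higher with a median of -1.09 in Pdgfra cells, 0 higher in tenocytes, and 0 higher and 16 lower in vascular cells. With TMM scaling, 1 was lower than in Myog cells and 1 than in sham fibre droplets, where the median was 2.81, and MOV over sham had 5 lower in quiescent-marker MuSCs, 2 higher and 8 lower with a median of -0.47 in Pdgfra cells, a median of -0.60 in tenocytes, and 2 higher with a median of -0.94 in vascular cells.

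With a mitochondrial limit of 5%, the median over sham fibre droplets was 2.88 and 0 were higher in MOV tenocytes. With a limit of 20%, 2 were higher than in sham Pdgfra cells, 1 in MOV tenocytes and 2 in MOV vascular cells, and with no limit these counts were also 2, 1 and 2, with a median of -0.96 in vascular cells. Removing doublet-like cells left 1 higher in MOV tenocytes. Totals without mitochondrial and fibre genes left 1 lower than in sham fibre droplets and 0 higher in MOV tenocytes.

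The signs that changed were those of Egr3 over Myog cells (-0.03) and Nr4a2 over sham Pdgfra cells (0.14) with equal weights, Nr4a1 over Myog cells (-0.26), Nr4a3 over tenocytes (0.11) and Tnfaip3 over vascular cells (1.09) with thinned cells, Atf3 over sham fibre droplets (-0.51) and Nr4a2 in MOV over sham quiescent-marker MuSCs (0.77) with the 5% limit, and Dusp5 in MOV over sham vascular cells (0.05) with the 20% limit. Of the medians, 133 stayed within their limits and 23 moved, and of the shares of cells 113 and 109. The sham groups are small, with 66 quiescent-marker MuSCs and 11 vascular cells, and the counting intervals leave out the spread between animals.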
